A study of Cricetulus griseus with 6 samples.

Results

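The 10 genes described here encode enzymes that supply ceramide or turn it into sphingomyelin. They are the sphingomyelinases *Smpd1*, *Smpd2*, *Smpd3* and *Smpd4*, the serine palmitoyltransferase subunits *Sptlc1* and *Sptlc2*, the ceramide synthases *Cers2*, *Cers5* and *Cers6*, and the sphingomyelin synthase *Sgms1*. They were chosen by gene symbol, and each of the 10 symbols was found on 1 row among the 27873 rows of the expression files. The cells were CHO-T cells, Chinese hamster ovary cells that carry mouse T-cadherin cDNA (*Cdh13*) from a retroviral vector and had been selected with puromycin. Both groups carry this transgene. One group was transfected with negative control siRNA (n = 3 libraries) and the other with a single *Xbp1* siRNA sequence (n = 3 libraries), and RNA was taken after 48 h. *Xbp1* encodes the transcription factor that the endoplasmic reticulum (ER) stress sensor IRE1α activates by splicing. In the study, *Xbp1* silencing was a way to activate IRE1α, and lower production of extracellular vesicles was reported for the silenced CHO-T cells. These libraries were made to search for genes and pathways behind that drop.

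Ceramide is made in the ER from serine and palmitoyl-CoA. Serine palmitoyltransferase takes the first step, and ceramide synthases later attach a fatty acid whose length depends on the synthase. In the Golgi, sphingomyelin synthase moves a phosphocholine head group onto ceramide. Sphingomyelinases take that head group off again and so return ceramide in lysosomes, in the ER and nuclear envelope, or at the plasma membrane and endosomes. Ceramide released by neutral sphingomyelinase 2, the product of *Smpd3*, is known to favour the inward budding of endosomal vesicles that are later secreted as exosomes.

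The deposited values are FPKM, a fragment number scaled to exon length and to the mapped reads of the library, so levels of different genes can be compared per length. The control libraries summed to between 646651 and 666267 FPKM and the silenced ones to between 593487 and 600986 FPKM, so every silenced sum was lower. Scaling to an equal sum was not tried, and its effect on the fold changes was not tested. The depth of the 6 libraries relative to control replicate 1 lay between 94.0% and 116%. *Xbp1* itself had 26.0, 26.2 and 28.4 FPKM in the control libraries and 2.18, 2.11 and 1.39 FPKM after *Xbp1* siRNA, so the silenced gene was low in each library labelled as silenced. The line was checked against cell type markers. Among mesenchymal markers *Vim*, *Fn1*, *Pdgfrb* and *Lgals1* were expressed, while *Col1a1*, *Col1a2* and *Thy1* were listed at 0 in all 6 libraries. The 7 mesenchymal markers summed to between 965 and 1055 FPKM in control libraries and to between 629.8 and 693 FPKM after *Xbp1* siRNA, with *Vim*, *Lgals1* and *Pdgfrb* lower and *Fn1* higher in every silenced library. Of the ovarian follicle markers, *Fshr* and *Inhba* were at 0 and the 5 that were matched summed to between 5.32 and 8.45 FPKM. The leukocyte markers *Ptprc* and *Cd3e* were at 0 throughout, and the 4 leukocyte markers summed to between 5.18 and 6.15 FPKM in controls and to between 6.99 and 8.796 FPKM after silencing, nearly all of it *Cd68*. The 4 endothelial markers, with *Cdh5* at 0, summed to at most 0.412 FPKM. The 3 matched epithelial markers summed to between 1.83 and 2.16 FPKM in control libraries and to between 4.595 and 5.79 FPKM after *Xbp1* siRNA, with *Krt18* at 0. Their part in the results was not tested.

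Differences were tested with limma on log2(FPKM + 0.1) over the 14361 genes with a mean of at least 0.1 FPKM, and a gene is said to have risen or fallen at a Benjamini-Hochberg adjusted p under 0.05, with adjustment over all of these genes. All 10 genes passed the filter. *Smpd1*, *Sptlc2*, *Cers2*, *Cers5* and *Sgms1* rose after *Xbp1* silencing and *Smpd4* fell. *Smpd2*, *Smpd3*, *Sptlc1* and *Cers6* did not pass the test. Thus 6 of the 10 passed, against 40.4% of all genes tested, of which 20.2% rose and 20.2% fell. At an unadjusted p under 0.05 the count was also 6 of the 10, against 48.9% of all genes tested. None of the 10 genes reached an absolute log2 fold change of 1, the limit that the study's methods set for a differentially expressed gene and that 5.19% of all genes tested met together with the adjusted p. The median absolute log2 fold change was 0.27 for the 10 genes and 0.27 for all genes tested.

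**Figure D1:**
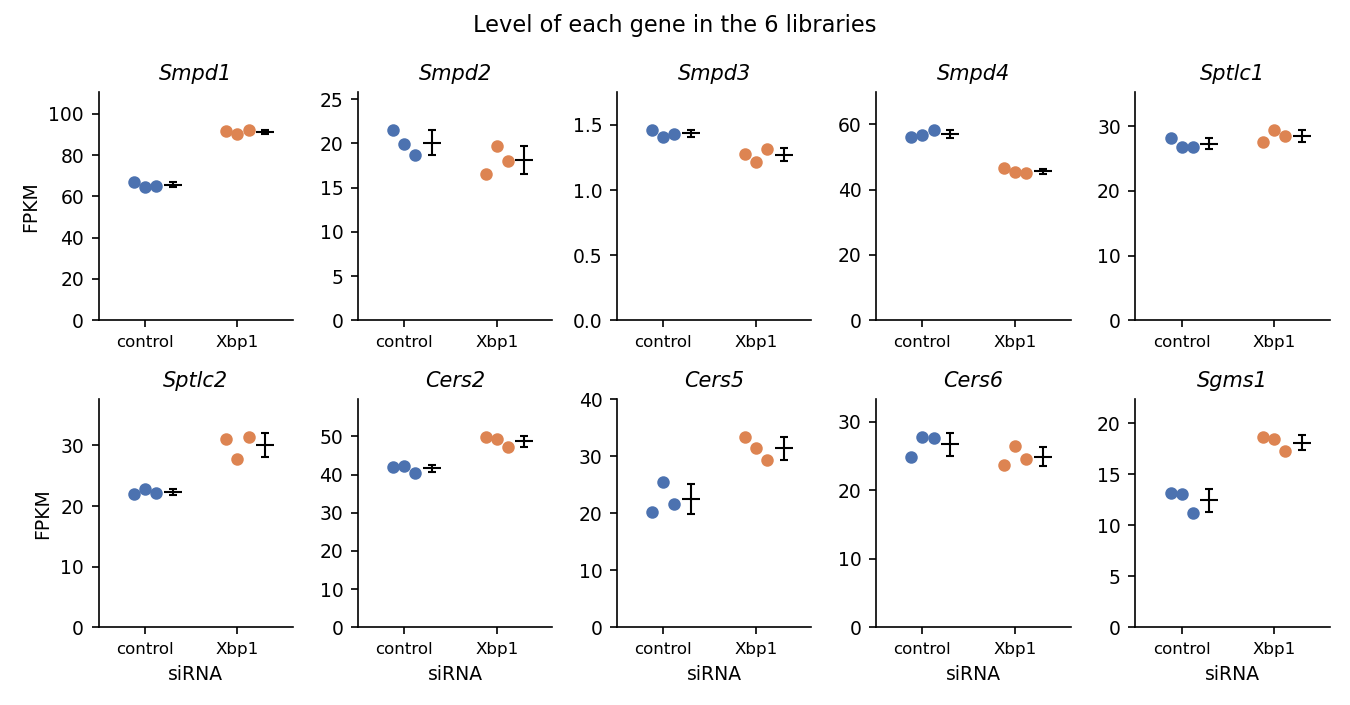
FPKM (y axis, from 0) of each gene in the 3 control siRNA libraries (blue) and the 3 *Xbp1* siRNA libraries (orange), with the mean and SD of each group in black. The groups are apart for 7 of the 10 genes, against 51.8% of all genes tested, and overlap for *Smpd2*, *Sptlc1* and *Cers6*.

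*Smpd1* encodes acid sphingomyelinase, the lysosomal enzyme, and was the most abundant of the 10 genes in both groups. It had 67.1, 64.7 and 65.2 FPKM in the control libraries and 91.6, 90.1 and 92.2 FPKM after *Xbp1* siRNA. Every silenced library was above every control library. The mean was 65.7 ± 1.27 FPKM (SD, n = 3) in controls and 91.3 ± 1.08 FPKM (SD, n = 3) after silencing, which is 139% of the control level, with a log2 fold change of 0.47 (standard error 0.033, adjusted p = 3.86e-05 from limma). This was the smallest adjusted p among the 10 genes.

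*Smpd4* encodes neutral sphingomyelinase 3, an enzyme of the ER and nuclear envelope, and moved the other way. Its control libraries held 56.0, 56.6 and 58.2 FPKM, and the silenced ones 46.5, 45.4 and 44.9 FPKM. The groups did not overlap. The control mean was 56.9 ± 1.16 FPKM (SD, n = 3) and the silenced mean 45.6 ± 0.7996 FPKM (SD, n = 3), or 80.1% of the control level, with a log2 fold change of −0.32 (standard error 0.037, adjusted p = 4.13e-04 from limma).

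*Smpd3*, which encodes the exosome-linked neutral sphingomyelinase 2, was the least expressed of the 10 genes in both groups. Its values were 1.46, 1.41 and 1.43 FPKM with control siRNA and 1.28, 1.22 and 1.32 FPKM with *Xbp1* siRNA. Each silenced library was below each control library, and the mean was 88.6% of the control level. The log2 fold change was −0.16 (adjusted p = 0.437 from limma), with a 95% interval from −0.52 to 0.19, which spans folds from 0.698 to 1.14. The result depends on how the spread of weakly expressed genes is set. When limma did not let the prior variance follow the level, the adjusted p was 0.0481, while the log2 fold change stayed at −0.16. The libraries of *Smpd3* had a relative SD of 1.73% in controls and 4.02% after silencing. Its reads could not be recovered, so this spread was not compared with counting error. The log2 fold change was −0.29 under quantile normalization (adjusted p = 0.160 from limma) and −0.10 with a pseudocount of 1 (adjusted p = 0.374 from limma). With 3 libraries a group, no exact two-sided permutation test can go below p = 0.10, the value for any gene whose groups do not overlap. Of all genes tested, 51.8% had groups that did not overlap.

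*Smpd2* encodes neutral sphingomyelinase 1. Its control libraries had 21.5, 19.96 and 18.7 FPKM and the silenced libraries 16.5, 19.7 and 18.0 FPKM, so the groups overlapped. The log2 fold change of −0.15 did not pass the test (adjusted p = 0.193 from limma, 95% interval from −0.34 to 0.04). Single libraries moved this value, from −0.21 without *Xbp1* siRNA replicate 2 to −0.087 without *Xbp1* siRNA replicate 1.

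The 4 sphingomyelinase genes summed to 144 ± 1.76 FPKM (SD, n = 3) in control libraries and to 156 ± 0.286 FPKM (SD, n = 3) after *Xbp1* siRNA. Within that sum, the share of *Smpd1* was 46.0%, 45.4% and 45.4% in the control libraries and 58.8%, 57.6% and 58.9% in the silenced ones. The share of *Smpd4* was 38.3%, 39.7% and 40.6% against 29.8%, 29.0% and 28.7%. Acid sphingomyelinase transcripts thus took up 12.8 percentage points more of the sum, and the difference for *Smpd4* was −10.3 percentage points. *Smpd3* stayed near 1% of the sum, with a mean share of 0.996% in controls and 0.814% after silencing, and *Smpd2* had 13.9% and 11.6%. For the sum and for each of the 4 shares the groups did not overlap, which gives p = 0.10 in an exact two-sided permutation test, the smallest that this design allows. Among single genes, the groups did not overlap for 51.8% of all tested. A share also falls when another gene of the sum rises, so the lower share of *Smpd2* does not show that its own level fell. The FPKM values of *Smpd2* overlapped between the groups.

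**Figure D2:**
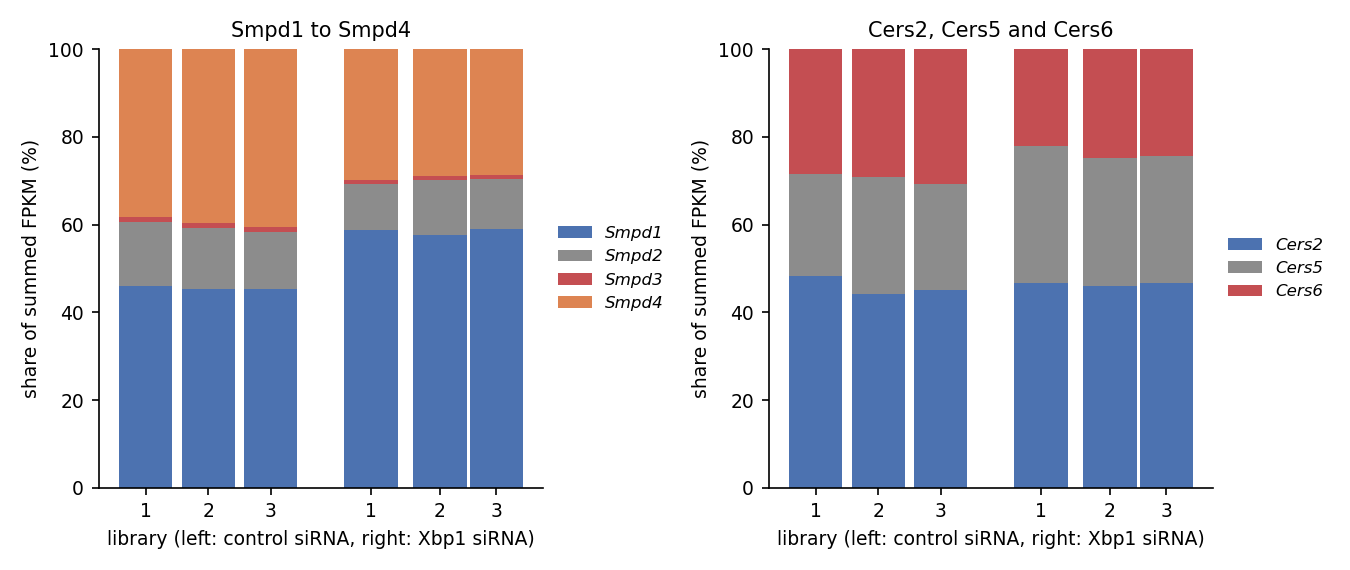
Share (y axis, percent of the summed FPKM in each library) of each sphingomyelinase gene (left panel) and each ceramide synthase gene (right panel) in the 3 control siRNA and the 3 *Xbp1* siRNA libraries. *Smpd1* takes a mean of 45.6% in controls and 58.4% after silencing, and *Cers6* a mean of 29.4% and 23.7%.

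*Sptlc1* and *Sptlc2* encode the subunits that together form the core of serine palmitoyltransferase, the enzyme that takes the first and rate-limiting step of sphingolipid synthesis, with the catalytic lysine in the *Sptlc2* product. *Sptlc2* had 22.0, 22.9 and 22.2 FPKM in the control libraries and 31.0, 27.9 and 31.4 FPKM after *Xbp1* siRNA. The silenced libraries were all higher than the controls, with a mean of 135% of the control level and a log2 fold change of 0.43 (standard error 0.058, adjusted p = 9.49e-04 from limma). *Sptlc1* had 28.2, 26.8 and 26.8 FPKM with control siRNA and 27.5, 29.4 and 28.5 FPKM with *Xbp1* siRNA. Its groups overlapped, and the log2 fold change was 0.06 (adjusted p = 0.344 from limma, 95% interval from −0.05 to 0.17). The interval for *Sptlc1* ends below that for *Sptlc2*, which ran from 0.29 to 0.56. The difference between the 2 genes was not tested.

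The ceramide synthases differ in the fatty acid they attach: the *Cers2* product prefers very long chains, and those of *Cers5* and *Cers6* prefer the palmitoyl chain. *Cers2* had 42.0, 42.3 and 40.6 FPKM in the control libraries and 49.8, 49.3 and 47.2 FPKM in the silenced ones. The groups did not overlap, and the mean rose to 117% of the control level (log2 fold change 0.23, standard error 0.040, adjusted p = 0.00338 from limma). *Cers5* had 20.3, 25.4 and 21.7 FPKM with control siRNA and 33.3, 31.5 and 29.4 FPKM with *Xbp1* siRNA. Control replicate 2 was the highest of its group and still below the lowest silenced library. The mean of *Cers5* rose to 140% of the control level (log2 fold change 0.49, standard error 0.090, adjusted p = 0.00413 from limma).

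*Cers6* had 24.8, 27.8 and 27.6 FPKM in the control libraries and 23.7, 26.5 and 24.6 FPKM after silencing. The groups overlapped, and the log2 fold change of −0.10 did not pass the test (adjusted p = 0.272 from limma, 95% interval from −0.25 to 0.05). The difference between *Cers5* and *Cers6* in their response was not tested. The share of *Cers5* in the summed FPKM of the 3 genes was 23.3%, 26.6% and 24.1% in controls and 31.2%, 29.3% and 29.0% after silencing. That of *Cers6* was 28.5%, 29.1% and 30.7% against 22.2%, 24.7% and 24.3%. Neither pair of ranges overlapped (p = 0.10 for each, exact two-sided permutation test, the smallest possible). Shares of 1 sum depend on each other, so a lower share of *Cers6* does not show that its own level fell. The share of *Cers2* was 45.9% ± 2.07 (SD, n = 3) and 46.4% ± 0.390 (SD, n = 3), with p = 0.70 in the same exact permutation test. Its difference of 0.514 percentage points became −0.289 without control replicate 2.

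*Sgms1* encodes the Golgi enzyme that makes sphingomyelin from ceramide, releasing diacylglycerol. It had 13.1, 13.1 and 11.2 FPKM in the control libraries and 18.6, 18.4 and 17.3 FPKM after *Xbp1* siRNA. All silenced libraries were above all control libraries. The control mean of 12.5 ± 1.12 FPKM (SD, n = 3) stood against a silenced mean of 18.1 ± 0.735 FPKM (SD, n = 3), or 145% of the control level. Its log2 fold change of 0.54 (standard error 0.079, adjusted p = 0.00136 from limma) was the largest of the 10 genes in absolute size and ranked 3588 among all genes tested.

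**Figure D3:**
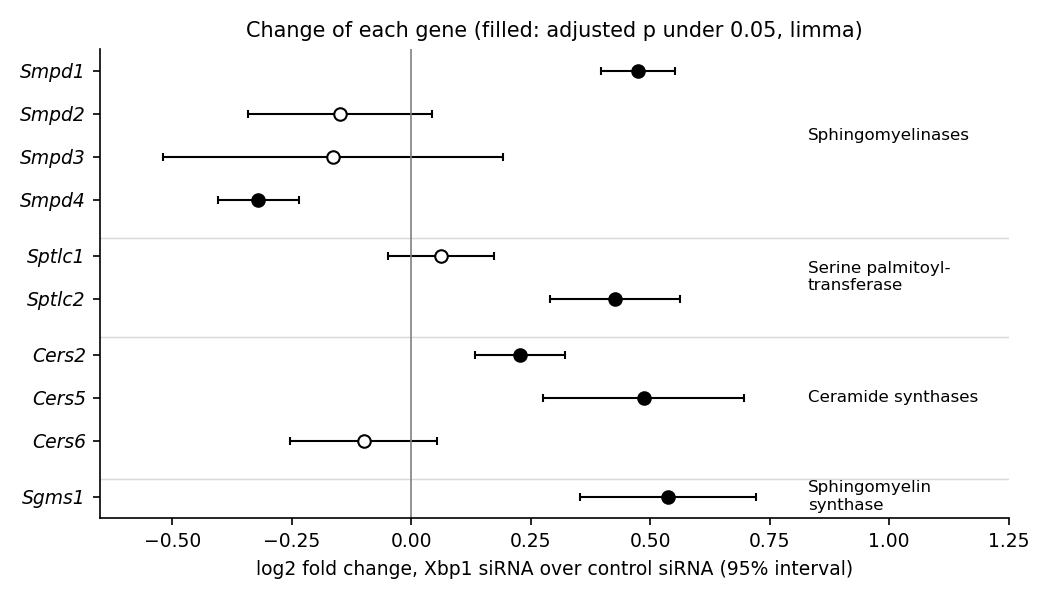
Log2 fold change of *Xbp1* siRNA over control siRNA (x axis) with its 95% interval from limma, by role of the gene. Filled points have an adjusted p under 0.05: the 5 genes that rose lie between 0.23 and 0.54, and *Smpd4* lies at −0.32.

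By level in the control libraries the order was *Smpd1*, *Smpd4*, *Cers2*, *Sptlc1*, *Cers6*, *Cers5*, *Sptlc2*, *Smpd2*, *Sgms1* and *Smpd3*. Of the 45 pairs of genes in this group, 4 had ranges over the libraries that overlapped: *Sptlc1* with *Cers6*, and *Cers5* with each of *Cers6*, *Sptlc2* and *Smpd2*. After *Xbp1* silencing *Cers2* (48.8 ± 1.40 FPKM, SD, n = 3) stood above *Smpd4*, and *Cers5* and *Sptlc2* stood above *Sptlc1* and *Cers6*. In that group 4 pairs had overlapping ranges, namely each pair among *Cers5*, *Sptlc2* and *Sptlc1*, and *Sgms1* with *Smpd2*. By their mean over the 6 libraries, *Smpd1* stood at the 90.0th percentile of the genes tested, *Smpd4* at the 84.0th, *Sgms1* at the 57.7th and *Smpd3* at the 21.8th.

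For *Smpd1*, *Smpd2*, *Sptlc1* and *Sptlc2* the reads behind the values could be recovered, because all 6 FPKM values of each were whole multiples of 1 step after correction for relative depth, within 0.03 reads. *Smpd1* rested on 1400, 1269 and 1333 reads in the control libraries and on 1958, 1844 and 2233 after silencing. *Smpd2* rested on the fewest of the 4, with 283, 247 and 241 reads and 223, 255 and 275 reads. *Sptlc1* had between 593 and 780 reads in all 6 libraries. The reads of *Sptlc2* were 384, 375 and 379 in controls and 555, 477 and 636 after silencing. Counting alone gives a relative SD of 5.94% to 6.70% for *Smpd2*, against 7.04% among the control libraries and 8.88% among the silenced ones. For *Smpd1* counting gives 2.12% to 2.81%, and the libraries spread by 1.93% and 1.19%, less than counting alone would give. These figures cover counting error only, and the values of the other 6 genes were not whole multiples of a common step.

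The wider sphingolipid pathway was examined in 5 lists of 70 genes in all, which include the 10 genes. Of these, 65 were matched by symbol, 10 were at 0 in all libraries and 47 were tested. Among the 47, 21 rose, 4 fell and 22 did not pass the test, with a median log2 fold change of 0.16 against 0.01 for all genes tested. Without the 10 genes, 16 of 37 rose and 3 fell. These counts are read against the 20.2% of all genes tested that rose and the 20.2% that fell. The lists were chosen with earlier results of these data known, so the counts describe the lists and cannot serve as a test of the pathway.

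In de novo ceramide synthesis 10 genes were tested, of which *Sptlc2*, *Cers2* and *Cers5* rose and 0 fell at an adjusted p under 0.05 (limma). At an unadjusted p under 0.05, 5 had higher and 1 had lower values, against 24.6% and 24.3% of all genes tested. The 3 of these that did not pass after adjustment, named here after their values were seen, were the ceramide synthase gene *Cers1* with a log2 fold change of 0.70 (adjusted p = 0.0569 from limma), and *Ormdl1* and *Ormdl3*, which encode regulators of serine palmitoyltransferase, with 0.22 and −0.16 (adjusted p = 0.0606 and 0.0723 from limma). Single libraries moved these log2 fold changes: *Cers1* had 0.45 without control replicate 2, *Ormdl3* had −0.096 without control replicate 1, and *Ormdl1* had 0.30 without control replicate 3, with an adjusted p of 0.0124 (limma). *Cers1* passed with the replicate number as a block (adjusted p = 0.0428 from limma) and with a pseudocount of 1 (0.0469, log2 fold change 0.44), and *Ormdl1* passed when only genes with a mean of at least 1 FPKM were tested (0.0482). The other 4 had log2 fold changes from −0.10 to 0.20. *Sptlc3*, an alternative catalytic subunit, and the ceramide synthases *Cers3* and *Cers4* were listed at 0 in every library. In sphingomyelin synthesis and hydrolysis *Sgms2*, a second sphingomyelin synthase, rose beside *Sgms1*. *Sgms2* had 8.27, 9.13 and 8.39 FPKM in the control libraries and 12.1, 12.6 and 11.9 FPKM after silencing, with a log2 fold change of 0.50 (adjusted p = 9.68e-04 from limma). *Samd8*, which encodes a related enzyme that makes ceramide phosphoethanolamine, rose by 0.25 on the log2 scale with an adjusted p of 0.0489 (limma). This call was lost under 4 other settings with all 6 libraries, at adjusted p from 0.0508 to 0.0923 (limma), and when any library other than control replicate 2 was left out, at 0.0614 to 0.142. Without control replicate 1 the log2 fold change of *Samd8* was 0.16. The acid sphingomyelinase-like genes *Smpdl3a* and *Smpdl3b* and the alkaline sphingomyelinase gene *Enpp7* were at 0 throughout.

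Among 7 genes of ceramide transfer and phosphorylation, *Gltp* rose and *Cerk* fell, so that 2 of 7 passed, against 40.4% of all genes tested. *Gltp*, which encodes the glycolipid transfer protein, had 12.4, 11.9 and 12.5 FPKM with control siRNA and 30.9, 27.7 and 28.8 FPKM with *Xbp1* siRNA. Its log2 fold change of 1.24 (adjusted p = 6.78e-06 from limma) was the largest in the 5 lists. *Cerk*, the ceramide kinase gene, fell by 0.16 on the log2 scale (adjusted p = 0.0216 from limma), and the adjusted p lay between 0.0512 and 0.0717 when any library other than *Xbp1* siRNA replicate 1 was left out, at 0.0758 under quantile normalization and at 0.0548 without the variance trend.

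Of 10 genes tested for ceramide breakdown and sphingosine-1-phosphate, 4 rose and 1 fell, so that 5 of 10 passed, near the 40.4% of all genes tested. *Asah1*, the acid ceramidase gene, which acts after acid sphingomyelinase in lysosomes, had 58.2, 59.7 and 64.4 FPKM in the control libraries and 86.6, 92.7 and 87.0 FPKM after silencing (log2 fold change 0.55, adjusted p = 1.39e-04 from limma). *S1pr2*, a receptor for sphingosine-1-phosphate, rose by 1.15 on the log2 scale, *Sgpp1*, which encodes a phosphatase of sphingosine-1-phosphate, by 0.64, and *Sgpl1*, which encodes the lyase that ends the pathway, by 0.33. *Sphk2*, a sphingosine kinase gene, fell by 0.54 on the log2 scale (adjusted p = 0.00702 from limma).

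Glycosphingolipid synthesis and breakdown had 13 genes tested, of which 9 rose and 1 fell, where 20.2% of all genes tested rose and 20.2% fell. Those that rose included *Glb1* (beta-galactosidase) by 0.89 on the log2 scale, *Gla* (alpha-galactosidase A) by 0.60, *Hexa* (a beta-hexosaminidase subunit) by 0.56, *Gm2a* (the GM2 activator) by 0.50 and *Galc* (galactosylceramidase) by 0.33. *Glb1* had 19.4, 20.1 and 21.4 FPKM in controls and 37.9, 37.3 and 37.9 FPKM after silencing (adjusted p = 1.49e-05 from limma). *St3gal5*, which encodes the synthase of the ganglioside GM3, rose by 0.69, and *B4galt6*, which encodes a lactosylceramide synthase, fell by 0.43 on the log2 scale. *Gba2*, which encodes a glucosylceramidase outside the lysosome, rose by 0.52 with an adjusted p of 0.02003 (limma), which was 0.0562 without control replicate 3, 0.0701 without *Xbp1* siRNA replicate 1 and 0.0528 without *Xbp1* siRNA replicate 3. The other 2 that rose, *Psap* and *Arsa*, named here after their values were seen, had log2 fold changes of 0.15 and 0.16. That of *Psap*, the saposin precursor gene, was 0.49 under quantile normalization. The adjusted p of *Arsa*, the arylsulfatase A gene, was between 0.0680 and 0.119 (limma) when any library other than control replicate 1 was left out, 0.0521 with no filter and 0.107 without the variance trend. *Neu1*, a lysosomal sialidase gene also named after its values were seen, had a log2 fold change of 0.10 and did not pass (adjusted p = 0.161 from limma), and its groups overlapped. It passed with 0.15 without *Xbp1* siRNA replicate 2 (adjusted p = 0.0314 from limma) and with 0.16 under quantile normalization (adjusted p = 0.0294 from limma).

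**Figure D4:**
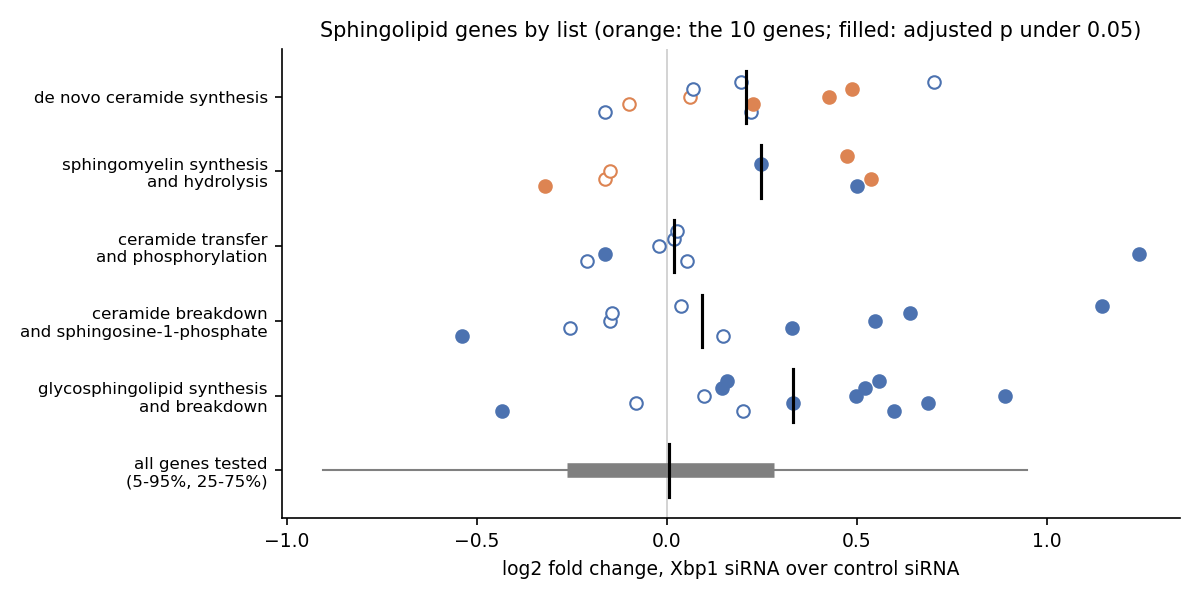
Log2 fold change (x axis) of each gene tested in the 5 sphingolipid lists, with the 10 genes in orange and the other genes in blue, filled where the adjusted p was under 0.05. Black ticks are medians, and the grey bar and line span the middle 25th to 75th and 5th to 95th percentiles of all genes tested, from −0.26 to 0.28 and from −0.90 to 0.95.

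The labels do not say whether libraries of a group came from separate cultures, so the p-values measure the spread between these libraries. The study's methods speak of independent biological experiments for its results in general, and their RNA-Seq section does not say this of the libraries. In RNA from bulk cultures, a change in every cell and a change in the share of cells that express a gene cannot be told apart. Protein, enzyme activity and ceramide were not measured in these data.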

How the data were processed

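RNA-Seq of CHO-T cells with control siRNA (3 libraries) or *Xbp1* siRNA (3 libraries) was analysed. The authors deposited 1 table of FPKM values per library from stranded mRNA libraries; the submitters' processing notes name HISAT2 2.1.0 and Cuffdiff 2.2.1, and the genome build and annotation are not given in the sources used here. Since FPKM values are not counts, the count test of the study's methods could not be applied. The test was run on log2(FPKM + 0.1), a scale that understates changes of weakly expressed genes, with limma 3.58.1 in R 4.3.3 (lmFit and eBayes with a trend) over genes with a mean of at least 0.1 FPKM, after a check on simulated data. Other steps used Python 3.11.15, numpy 2.4.6 and pandas 2.3.3. Symbols on more than 1 row (159) were kept apart and include none of the genes listed here. Relative depth came from the ratio between libraries of low FPKM values standing for equal numbers of reads. Named genes are the 10 genes, *Xbp1* and, per wider list, at most 8 others at an adjusted p under 0.05, in order of absolute fold change, and genes at 0 in all libraries could also be listed; any other gene of the lists is said to be named after its values were seen. The 10 genes and the lists were chosen with earlier results of these data known, and 1 further gene of the pathway was left out of the lists for a reason unrelated to its values and is not reported here. The alternatives tried were a pseudocount of 1 or 0.01, filtering at 1 FPKM or not at all, median-ratio scaling, quantile normalization, eBayes without trend, the replicate number as a block, other call limits, and leaving out each library. Promoter motifs were planned and were not analysed here, as no sequences were used.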

Additional observations from a re-analysis of the deposited data

How the results depend on the processing

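None of the 14 alternative fits scaled the libraries to an equal FPKM sum. Across these fits, the 10 genes kept their direction, and 9 of them kept their side of an adjusted p of 0.05. The exception was *Smpd3*, which passed with an adjusted p of 0.0481 (limma) without the variance trend and so gave 2 genes lower instead of 1. Without the trend, 2626 of all 14361 genes tested were lower. Under the added fold limit of 1 on the log2 scale, 0 genes were higher and 0 lower, because no change was that large; at an unadjusted p under 0.05, 6 of the 10 genes passed, against 48.9% of all genes tested. The log2 fold change of *Smpd1* lay between 0.46 and 0.55 and that of *Smpd4* between −0.33 and −0.26. Among the 4 genes that did not pass, it ran from −0.29 to −0.10 for *Smpd3*, from −0.21 to −0.087 for *Smpd2*, from −0.15 to −0.055 for *Cers6* and from 0.039 to 0.11 for *Sptlc1*. The difference in the share of *Cers2* ran from −0.289 to 1.69 percentage points when each library was left out, and it reversed without control replicate 2. A block for the replicate number left 5 of the 10 genes higher and 1 lower, and 22 of the 47 genes tested in the lists higher and 4 lower. In that fit, 2767 of all 14361 genes tested were higher and 2875 lower. Replicate numbers do not pair the libraries: deviations of same-numbered libraries correlated across genes with r of −0.029, −0.027 and −0.012. Of 476 values recomputed for the 34 tested genes named here, none reversed, 26 lost the call, all for *Samd8*, *Cerk*, *Gba2* and *Arsa*, and 7 gained it, for *Smpd3*, *Ormdl1*, *Cers1* and *Neu1*. Of the other 14 list genes, which did not pass, 6 changed sign in at most 4 alternatives each and 4 passed in 1 alternative each. The cause was not tested. *Smpd3*, the weakest of the 10 genes with a mean of 1.35 FPKM, had the widest 95% interval of its log2 fold change.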

Other observations

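Whole numbers of reads, with a mean between 10 and 300 a library, were recovered to within 0.02 reads for 3631 of 13322 genes with a value above 0 in each library. Over these genes, a chi-square comparison of read numbers between libraries of the same group gave between 2.34 and 2.86 per gene, where counting error alone gives 1, so each pair of libraries differed by more than the noise of counting and none was treated as a library deposited again.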
